A study of Mus musculus with 6 samples.

Results

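Transcript levels of the translation initiation factor genes were examined in gastrocnemius/plantaris (GP) muscle of adult mice in which Net39, a gene of the muscle nuclear envelope, was targeted. Members were chosen by name: every symbol in the count tables that begins with Eif and a digit from 1 to 6 was taken, so that the kinases of eIF2 and the binding proteins of eIF4E were included. The rule found 55 of the 24421 genes listed, and 52 of them were among the 14180 genes with enough reads to test. The study asked what the loss of Net39 from muscle fibers does to gene expression, using bulk RNA-Seq of mRNA from whole muscle. As labelled, both groups were male mice with 2 floxed copies of Net39 (Net39 fl/fl), and both received tamoxifen. The labels give B6C3F1 as the strain background, whereas the study's methods name B6C3F1 for the zygotes that were edited and describe later crosses to other mice. By their labels the 3 Ctrl mice lacked Cre and the 3 cKO mice carried HSACreERT2, an assignment that the level of the targeted gene goes against. In HSACreERT2 mice the human skeletal actin promoter drives a Cre that tamoxifen switches on, so recombination is limited to muscle fibers, and muscle stem cells and cardiac muscle are spared. All 6 mice were 5 months of age, 3 months after tamoxifen. The study's controls carried no Cre transgene, so the presence of Cre and the deletion cannot be told apart, whichever libraries those are.

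Initiation is the step at which a ribosome is placed on the start codon of an mRNA. The factor eIF2 brings the initiator methionyl-tRNA to the small ribosomal subunit, eIF1, eIF1A and eIF3 hold the scanning subunit in shape, and the cap-binding complex eIF4F recruits the mRNA. Muscle, a tissue whose mass follows the balance of protein synthesis and breakdown, controls this step chiefly through phosphorylation of eIF2 and through the eIF4E-binding proteins, which hold the cap-binding protein eIF4E until mTORC1 releases it. Such control acts on proteins and was not measured here.

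The targeted gene went against the sample labels. Net39, listed under its older symbol Ppapdc3, had 310, 321 and 217 counts in Ctrl-labelled libraries and 5365, 4340 and 6080 in cKO-labelled ones, a log2 fold change of 4.22 (SE 0.17, edgeR adjusted p = 0.000161). Groups are therefore named by their labels only (Ctrl-labelled and cKO-labelled libraries), and log2 fold changes divide the second by the first, so that a positive value is a higher level where Net39 was high. Libraries held 33860001 to 38201728 counts in the group labelled Ctrl and 39191239 to 48839910 in that labelled cKO. Levels are given as CPM, counts brought to a common library size with TMM factors, a correction for libraries in which a few genes take a large share of reads. These factors ran from 0.865 to 0.983 for cKO-labelled and from 1.08 to 1.11 for Ctrl-labelled libraries, and scaling by total counts instead shifted the median over all genes from -0.015 to -0.27. Both groups had the fiber genes that GP muscle should have, with 76359 to 96855 summed CPM over 6 muscle fiber markers in Ctrl-labelled libraries and 120619 to 163556 in cKO-labelled ones. Of these sums Myh4 made up 15349 to 36565 and 57352 to 80134 CPM. Markers of fiber type and of other cells differed between the groups. Summed CPM of 8 slow-fiber genes was 8481 to 14598 in Ctrl-labelled libraries and 446 to 3873 in cKO-labelled ones, and that of 8 immune genes was 168 to 191 and 76.0 to 107. None of the marker genes was at 0 in any library, and 3 of the 8 slow-fiber genes, 6 of the 8 immune genes and 2 of 5 genes of fibro-adipogenic progenitors passed the test toward Ctrl-labelled libraries. In the direction of cKO-labelled libraries 2 of the 6 muscle fiber genes passed, Myh4 (log2 1.46, adjusted p = 0.0213) and Ckm (0.77, adjusted p = 0.0279). Leaving out 1 library moved these counts: 0 of the 3 slow-fiber calls held without Ctrl 1, Ctrl 2 or cKO 1, 0 of the 2 muscle fiber calls without Ctrl 2, cKO 1 or cKO 3, 3 of the 6 immune calls without Ctrl 2 or cKO 3, and 1 of the 2 calls of fibro-adipogenic progenitors in every fit but that without cKO 2. Over endothelial, satellite cell, Schwann cell and adipocyte markers no gene passed with TMM factors, whereas with total counts 3 Schwann cell genes and 1 endothelial gene were lower in cKO-labelled libraries. With total counts 6 of the 8 slow-fiber genes, 8 of the 8 immune genes and 3 of 5 genes of fibro-adipogenic progenitors were also lower there, as were 28.7% of all genes. The muscle fiber gene Mb was lower too (log2 -0.92, adjusted p = 0.0419), but did not pass with TMM factors (-0.68, adjusted p = 0.0916). In whole muscle, fewer cells of a type and less RNA per cell cannot be told apart, and the part of these shifts in the results was not tested.

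Of the 52 initiation factor genes tested, 36 did not pass with TMM scaling, and those that did moved mostly one way. Of the 52, 15 were higher in cKO-labelled libraries at an adjusted p under 0.05 (28.8% of those tested), against 12.6% of all genes tested, and 1, Eif4a1, was higher in Ctrl-labelled ones, against 11.8%. In either direction 24.4% of all genes passed. No member reached a fold change of 2 with an adjusted p under 0.05, a limit that 6.05% of all genes passed, and 0 did so with DESeq2. With TMM factors the log2 fold change was positive for 45 members (86.5%), against 48.3% of all genes, and the median over all 52 was 0.21. With total counts it was positive for 23 (44.2%), against 23.1% of all genes. With TMM factors every library labelled cKO lay above every library labelled Ctrl in 28 members, as in 22% of all genes. In 1 the reverse held, as in 21.9%, while 43.9% of all genes were apart in either direction. With total counts members were apart in both directions, a split not set against all genes. Eif2s2, Eif4ebp1, Eif4ebp2 and Eif5 were still apart toward cKO-labelled libraries. Eif4h and Eif5a turned and were apart toward Ctrl-labelled ones, as were Eif3a, Eif3d and Eif3g, among others. The differences were spread over the roles, with 1 of 5 scanning factors, 3 of 6 genes of eIF2 and alternative tRNA carriers, 1 of 5 eIF2B subunits, 1 of 4 eIF2 kinases, 3 of 12 eIF3 subunits, 3 of 11 genes of eIF4F and its cofactors, 2 of 4 genes of eIF4E-binding proteins and 1 of 5 genes of subunit joining and eIF5A higher in cKO-labelled libraries.

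**Figure D1:**
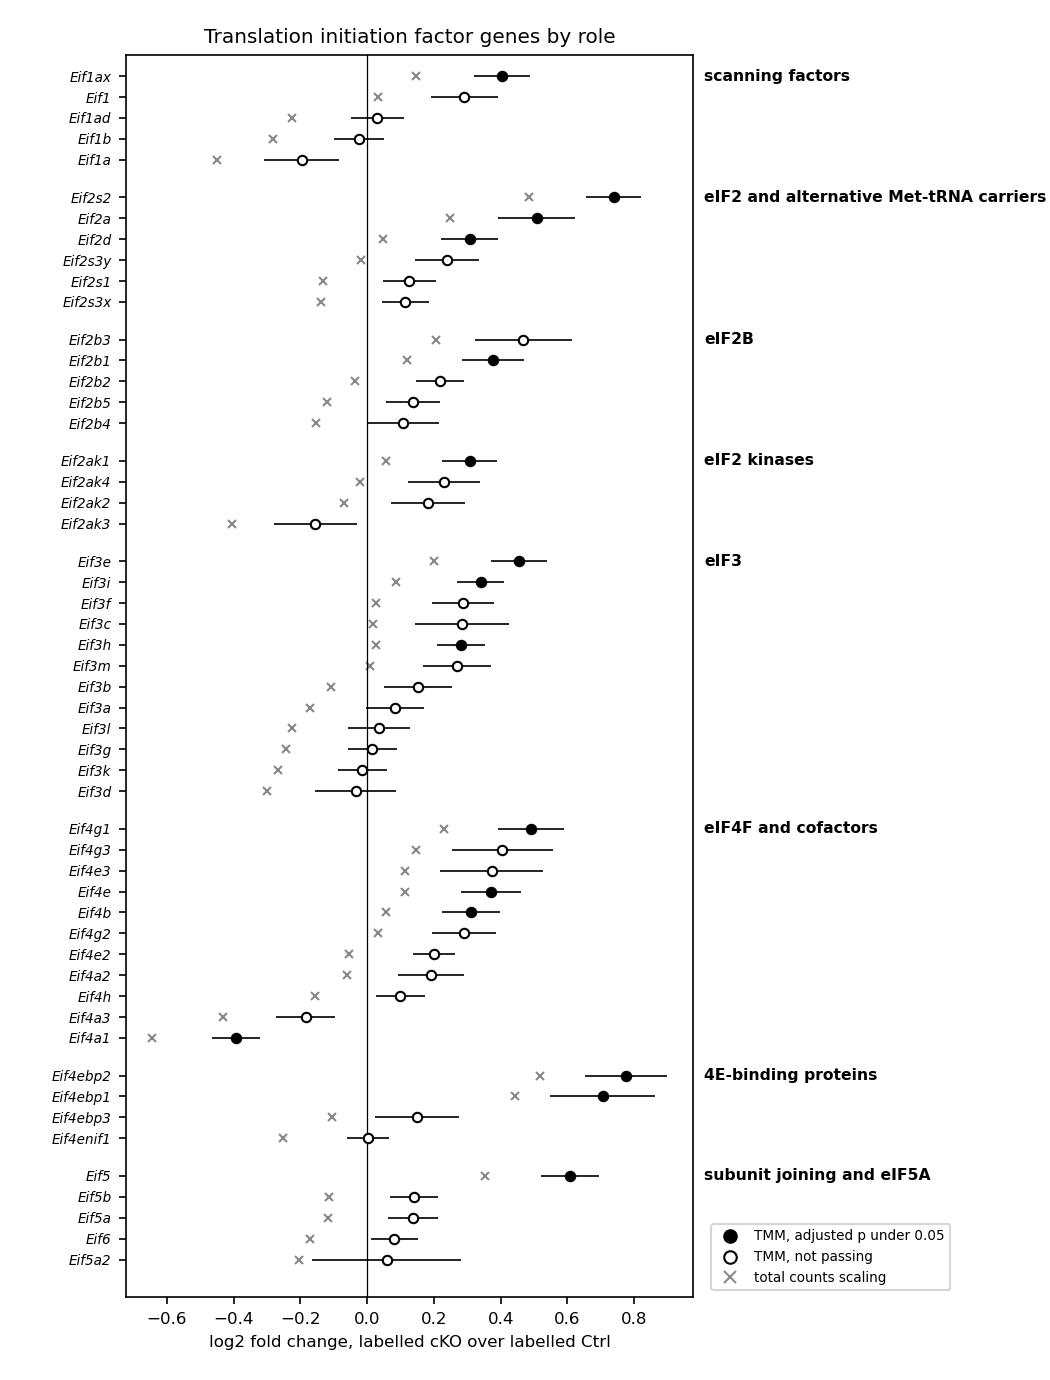
Log2 fold change (labelled cKO over labelled Ctrl) of the 52 members tested, grouped by role, with bars of 1 standard error. Filled circles passed at an adjusted p under 0.05 with TMM scaling, and open circles did not. Crosses give the same contrast scaled by total counts, where every member lies further left and 23 rather than 45 members are above 0.

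The balance of directions depended on the scaling. Members made up 0.701, 0.696 and 0.721% of all counts in Ctrl-labelled libraries and 0.716, 0.722 and 0.726% in cKO-labelled ones, so their share of the sequenced reads overlapped between the groups. After TMM scaling their summed level was 6303, 6413 and 6676 CPM against 8275, 7344 and 8054 CPM, and the groups were apart. With total counts 4 members were higher in cKO-labelled libraries (4.75% of all genes) and 9 in Ctrl-labelled ones (28.7%), and the members' median was -0.05. The distance between the members' median and that of all genes was 0.23 on the log2 scale with TMM factors and 0.22 with total counts. The scaling moves all genes by nearly the same amount, so these distances had to be alike. The 4 members higher under both scalings were Eif2s2, Eif4ebp1, Eif4ebp2 and Eif5, and Eif4a1 was lower under both.

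**Figure D2:**
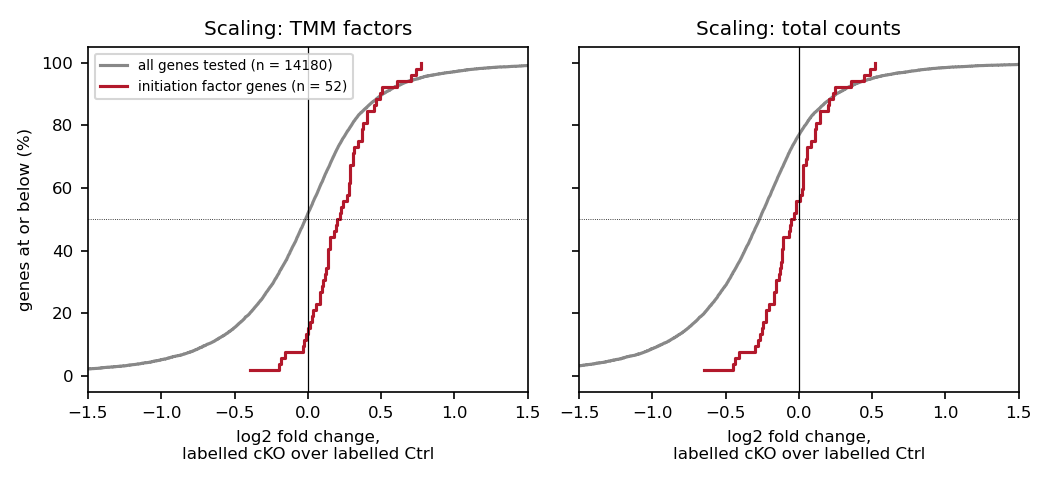
Cumulative share of genes (%) against log2 fold change, labelled cKO over labelled Ctrl, for all 14180 genes tested and for the 52 members, with TMM factors (left) and total counts (right). The members' curve lies to the right of the curve of all genes through its middle under both scalings, although its median is 0.21 on the left and -0.05 on the right.

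In 5 of the 6 fits that left out a library, fewer genes were called higher in cKO-labelled libraries both among the members and over all genes. The number of members higher in cKO-labelled libraries was 4 rather than 15 without the library labelled Ctrl 1 (5.33% of all genes rather than 12.6%), 5 without Ctrl 2 (6.06%), 4 without cKO 1 (6.2%) and 4 without cKO 3 (5.34%). It was 13 without Ctrl 3 (11.8%) and 21 without cKO 2 (12.3%). Eif2s2, Eif3e, Eif4ebp2 and Eif5, and Eif4a1 in the other direction, passed in all 6 of these fits. Within the group labelled cKO, library 2 was nearest to Ctrl-labelled libraries: the median deviation of the members from the mean of Ctrl-labelled libraries was 0.14 on the log2 scale there, against 0.24 in library 1 and 0.27 in library 3.

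The members that passed in each of the 12 alternatives fitted were Eif2s2, Eif4ebp2 and Eif5, higher in cKO-labelled libraries, and Eif4a1, lower in them. To show the sequence around the start of these genes, the 250 bases upstream of their RefSeq starts (GRCm38.p6) are given 5′ to 3′ on the strand of the gene, with matches to 4 short motifs in capitals: the cAMP response element (CRE) core TGACG, the E-box CACGTG, the CCAAT box, CCAAT, and the core bound by ETS factors, CCGGAA, each on either strand. They lie at chr2:154892907-154893156 (minus strand), chr10:61452670-61452919 (minus), chr12:111537851-111538100 (plus) and chr11:69672424-69672673 (minus). RefSeq and GENCODE starts differ, so that 85 bases of the window of Eif5 and 29 of that of Eif2s2 lie inside the gene as GENCODE gives it.
Eif2s2: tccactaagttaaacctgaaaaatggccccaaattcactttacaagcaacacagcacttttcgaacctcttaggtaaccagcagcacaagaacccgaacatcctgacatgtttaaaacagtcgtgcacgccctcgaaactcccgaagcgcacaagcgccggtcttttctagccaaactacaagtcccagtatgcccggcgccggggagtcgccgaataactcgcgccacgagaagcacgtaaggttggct
Eif4ebp2: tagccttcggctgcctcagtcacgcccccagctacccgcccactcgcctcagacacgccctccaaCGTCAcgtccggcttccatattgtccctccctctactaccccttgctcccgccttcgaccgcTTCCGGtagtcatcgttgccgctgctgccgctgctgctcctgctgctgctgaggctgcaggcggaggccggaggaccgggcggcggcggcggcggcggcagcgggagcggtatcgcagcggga
Eif5: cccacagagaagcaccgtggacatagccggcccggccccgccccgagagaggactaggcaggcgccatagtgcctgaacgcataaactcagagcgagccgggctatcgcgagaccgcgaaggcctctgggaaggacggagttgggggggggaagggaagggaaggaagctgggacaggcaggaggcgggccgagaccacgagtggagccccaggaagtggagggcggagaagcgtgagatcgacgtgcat
Eif4a1: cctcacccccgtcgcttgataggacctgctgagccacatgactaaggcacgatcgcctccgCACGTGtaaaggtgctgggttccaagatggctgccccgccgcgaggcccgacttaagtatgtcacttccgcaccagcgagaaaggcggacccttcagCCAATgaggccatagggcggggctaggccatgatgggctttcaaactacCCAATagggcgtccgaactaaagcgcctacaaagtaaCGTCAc
No motif was found in the window of Eif2s2 or Eif5, that of Eif4ebp2 held 1 CRE core and 1 ETS core, and that of Eif4a1 held 1 CRE core, 1 E-box and 2 CCAAT boxes. RefSeq windows were matched for 43 of the 55 members (56 windows), and Eif3e and Eif4ebp1 were not among them. TGACG occurred in 48.2% of the members' windows, in 25.2% of those of all genes tested and in 17.8% of all 32851 windows. The E-box was in 19.6, 8.08 and 6.02%, CCGGAA in 32.1, 20.1 and 12%, and CCAAT in 25, 34.3 and 33.8%. These matches describe letters in a window and no binding was measured.

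Among the factors that deliver the initiator tRNA, Eif2s2 stood out. It encodes eIF2β, the subunit through which eIF2 meets eIF5 and eIF2B, and lies on chromosome 2 (154871410-154892935, minus strand, GRCm38). Its level was 101, 108 and 117 CPM in Ctrl-labelled libraries and 184, 173 and 186 CPM in cKO-labelled ones. The groups were far apart relative to the spread within each. The fold was 1.67 (log2 0.74, SE 0.08, adjusted p = 0.00285), and 0.48 on the log2 scale with total counts (adjusted p = 0.0064). The genes of its partner subunits did not pass: Eif2s1, which encodes the α subunit phosphorylated under stress, had 39.4 to 43.6 CPM against 41.5 to 47.1 CPM (adjusted p = 0.283), and the X-linked and Y-linked genes of the γ subunit, Eif2s3x and Eif2s3y, had adjusted p = 0.262 and 0.113. Per kilobase of transcript, the only scale on which genes can be set side by side, Eif2s2 had 42.7 ± 3.03 CPM (SD, n = 3) in Ctrl-labelled libraries and 71.3 ± 2.76 CPM in cKO-labelled ones, Eif2s3y 27.1 ± 1.5 and 32.0 ± 3.42, Eif2s3x 14.1 ± 0.678 and 15.3 ± 0.39, and Eif2s1 12.1 ± 0.642 and 13.2 ± 0.865. These levels depended on the length taken. Over merged exons Eif2s2 was at 16.1 and 26.8 CPM, and the order of the γ subunit genes turned, with Eif2s3x at 13.5 and 14.6 CPM and Eif2s3y at 11.96 and 14.1 CPM. Eif2a, which can carry tRNA to the ribosome without GTP, had 44.1, 48.8 and 55.3 CPM against 74.1, 61.7 and 74.8 CPM (log2 0.51, SE 0.11, adjusted p = 0.0204). Eif2d, which acts on ribosomes that already hold a start codon, had 23.3, 22.1 and 24.4 CPM against 30.6, 26.5 and 29.3 CPM (0.31, SE 0.09, adjusted p = 0.0391). Both sets were apart, but both calls were lost without Ctrl 1, Ctrl 2, cKO 1 or cKO 3, with adjusted p up to 0.0724 for Eif2a and 0.132 for Eif2d.

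The exchange factor eIF2B recharges eIF2 with GTP, and its activity is what phosphorylated eIF2 blocks. Of its 5 genes only Eif2b1, of the regulatory α subunit, passed, with 35.5, 37.3 and 32.0 CPM in Ctrl-labelled libraries and 46.5, 41.3 and 48.4 CPM in cKO-labelled ones (log2 0.38, SE 0.09, adjusted p = 0.0268, and up to 0.111 without 1 library). Its call was lost without Ctrl 1, Ctrl 3, cKO 1 or cKO 3. Eif2b3, of the γ subunit, had the largest log2 fold change of the complex, 0.47, but a wider spread, with 13.6, 15.7 and 16.4 CPM against 22.4, 16.9 and 23.7 CPM (SE 0.14, adjusted p = 0.0543). Eif2b5, which encodes the catalytic ε subunit and has the highest CPM of the 5, had 66.7 to 69.0 CPM against 67.9 to 79.0 CPM, and the groups overlapped (adjusted p = 0.246).

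Of the 4 kinases that phosphorylate eIF2α, 1 passed. Eif2ak1 encodes HRI, the heme-regulated kinase, and had 48.9, 45.0 and 44.3 CPM in Ctrl-labelled libraries and 55.4, 61.6 and 53.9 CPM in cKO-labelled ones. The groups were apart by a narrow margin (log2 0.31, SE 0.08, adjusted p = 0.0346), and the call was lost on leaving out any of the 6 libraries, with adjusted p up to 0.106. Eif2ak1 was also the most abundant of the kinases per kilobase, at 10.7 ± 0.579 CPM against 1.36 to 1.79 for the means of the others in Ctrl-labelled libraries. Eif2ak2 (PKR, which binds double-stranded RNA), Eif2ak3 (PERK, of the endoplasmic reticulum) and Eif2ak4 (GCN2, which senses uncharged tRNA) had adjusted p of 0.265, 0.39 and 0.163. With TMM factors Eif2ak3 was the only kinase gene with a negative log2 fold change, -0.16 (SE 0.12). With total counts Eif2ak2 (-0.07) and Eif2ak4 (-0.02) were negative as well.

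eIF3, the large scaffold that binds the small ribosomal subunit, is encoded by 14 of the members, and 3 of the 12 tested passed. Eif3e, on chromosome 15 (43250058-43282719, minus strand), had 103, 108 and 119 CPM in Ctrl-labelled libraries and 159, 147 and 147 CPM in cKO-labelled ones. No library of one group entered the range of the other (log2 0.45, SE 0.08, adjusted p = 0.0106), although with total counts the value was 0.20 and the adjusted p 0.0916. Eif3i had 64.7, 67.9 and 67.2 CPM against 83.4, 80.7 and 88.9 CPM (0.34, SE 0.07, adjusted p = 0.0157). Eif3h had 121, 129 and 132 CPM against 157, 151 and 157 CPM (0.28, SE 0.07, adjusted p = 0.0314). Without Ctrl 1, Ctrl 2, cKO 1 or cKO 3 the calls of Eif3i and Eif3h were lost (adjusted p up to 0.0729 and 0.114). Eif3a, the largest subunit, did not pass, with 221 to 243 CPM against 230 to 259 CPM (adjusted p = 0.516). The log2 fold changes of the 12 subunits ran from -0.04 to 0.45 with a median of 0.21. Eif3j1 and Eif3j2, near-identical copies that counting could split or leave out and whose levels are thus uncertain, had 0 counts in every library. With total counts all of Eif3d, Eif3g, Eif3k and Eif3l passed toward Ctrl-labelled libraries. Antisense Gm17638 shares 43.3% of the exonic bases of Eif3d, and whether counting used strand is not given in the sources used here.

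The genes of eIF4F, the complex of a cap-binding protein, a scaffold and a helicase, differed in both directions. Eif4g1, the main scaffold, had 628, 648 and 661 CPM in Ctrl-labelled libraries and 976, 818 and 927 CPM in cKO-labelled ones. The lowest library labelled cKO was well above the highest labelled Ctrl (log2 0.49, SE 0.10, adjusted p = 0.0148), yet the call was lost without Ctrl 1, Ctrl 2, cKO 1 or cKO 3 (adjusted p up to 0.0638). Eif4e, the cap-binding protein, had 80.3, 88.1 and 82.2 CPM against 119, 99.1 and 106 CPM (0.37, SE 0.09, adjusted p = 0.0260), and passed in only 1 of the 6 fits, that without cKO 2 (adjusted p up to 0.0926). Eif4b, which stimulates the helicase, had 294, 307 and 333 CPM against 401, 370 and 389 CPM (0.31, SE 0.09, adjusted p = 0.0394, and up to 0.126 without Ctrl 1). Its call, too, was lost without Ctrl 1, Ctrl 2, cKO 1 or cKO 3. Eif4g2, a relative of the scaffold that does not bind eIF4E, was the member with most reads, at 903, 857 and 927 CPM against 1156, 1021 and 1107 CPM, and missed the threshold although the groups were apart (0.29, SE 0.10, adjusted p = 0.0659).

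Eif4a1 went the other way. This gene of the helicase eIF4A, on chromosome 11 (69666936-69672423, minus strand), had 113, 116 and 110 CPM in Ctrl-labelled libraries and 82.0, 89.8 and 86.3 CPM in cKO-labelled ones. The groups were apart, and the level was 1.31-fold higher in Ctrl-labelled libraries (log2 -0.39, SE 0.07, adjusted p = 0.0105). It was the only member tested that was lower in cKO-labelled libraries at this threshold, with TMM factors and in all 6 fits that left out a library except that without cKO 2, where 2 members were. Eif4a2, its close paralog and the more abundant helicase gene in this muscle (260 ± 19.1 CPM per kilobase against 63.7 ± 1.84 for Eif4a1 in Ctrl-labelled libraries, and 59.8 against 26.1 with the merged exons of each gene as its length), had 343, 296 and 320 CPM against 332, 374 and 388 CPM, and the groups overlapped (log2 0.19, SE 0.10, adjusted p = 0.200). Both genes host small nucleolar RNAs on the same strand. They share 3.3 and 3.32% of the exonic bases of Eif4a1 and from 0.187 to 3.33% each of those of Eif4a2. Eif4e1b, an eIF4E of the germ line, had at most 15 counts in a library and was not tested.

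The genes of the proteins that hold eIF4E had the largest median of any role, 0.43 over 4 members of unlike values. It lay between those of Eif4ebp1 and Eif4ebp2 and the smaller ones of Eif4ebp3 and Eif4enif1, and described no single gene. Eif4ebp2, on chromosome 10 (61428491-61452661, minus strand), had 74.1, 82.4 and 95.4 CPM in Ctrl-labelled libraries and 162, 133 and 136 CPM in cKO-labelled ones. All libraries labelled cKO were well above Ctrl-labelled ones, and the fold of 1.71 was the largest among the members with all libraries in the fit (log2 0.78, SE 0.12, adjusted p = 0.00702, and 0.52 with total counts, adjusted p = 0.0119). With 1 library left out its log2 fold change fell to as low as 0.67, whereas that of Eif2s2 stayed at 0.69 or above, so this rank is uncertain. Eif4ebp1, on chromosome 8 (27260329-27276674, plus strand), had 30.3, 27.9 and 34.8 CPM against 52.2, 39.7 and 59.7 CPM. The groups were apart, with the library labelled cKO 2 closest to Ctrl-labelled ones (log2 0.71, SE 0.16, adjusted p = 0.0199). With total counts it passed (0.44, adjusted p = 0.0428), but not without Ctrl 1, Ctrl 2, cKO 1 or cKO 3 (adjusted p up to 0.0715). Per kilobase both were at a like level, 15.5 ± 1.75 CPM for Eif4ebp1 and 14.5 ± 1.86 for Eif4ebp2 in Ctrl-labelled libraries, and 25.3 ± 5.05 and 24.8 ± 2.79 in cKO-labelled ones. Eif4ebp3 and Eif4enif1, which encodes an eIF4E transporter, did not pass (log2 0.15 and 0.004, adjusted p = 0.413 and 0.975). Another gene of the same strand, AC115631.1, shares 67.3% of the exonic bases of Eif4ebp3, so the counts of Eif4ebp3 are uncertain.

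The scanning factors and the factors of subunit joining each had 1 gene that passed. Eif5, the partner of eIF2 that triggers GTP hydrolysis once the start codon is found, lies on chromosome 12 (111538016-111546752, plus strand) and had 158, 164 and 185 CPM in Ctrl-labelled libraries and 262, 248 and 263 CPM in cKO-labelled ones. The groups were well apart (log2 0.61, SE 0.09, adjusted p = 0.00539), also with total counts (0.35, adjusted p = 0.0202). Eif1ax, the X-linked gene of eIF1A, had 44.9, 47.8 and 48.8 CPM against 66.1, 56.6 and 64.6 CPM (0.40, SE 0.08, adjusted p = 0.0156), with the call lost without Ctrl 1, Ctrl 2, cKO 1 or cKO 3 (adjusted p up to 0.0641). Eif1, the fidelity factor and the member with the highest level per kilobase (478 ± 11.7 and 585 ± 53.5 CPM), had 635, 615 and 645 CPM against 819, 691 and 808 CPM and missed the threshold (0.29, SE 0.10, adjusted p = 0.0730). Eif5a, whose protein carries hypusine and helps the ribosome through difficult peptide bonds, had 330, 346 and 339 CPM against 377, 373 and 366 CPM, groups apart but not past the test (0.14, SE 0.08, adjusted p = 0.223), and its sign turned with total counts (-0.12). Eif5b, which joins the subunits, and Eif6, which keeps them apart, had adjusted p of 0.199 and 0.438.

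**Figure D3:**
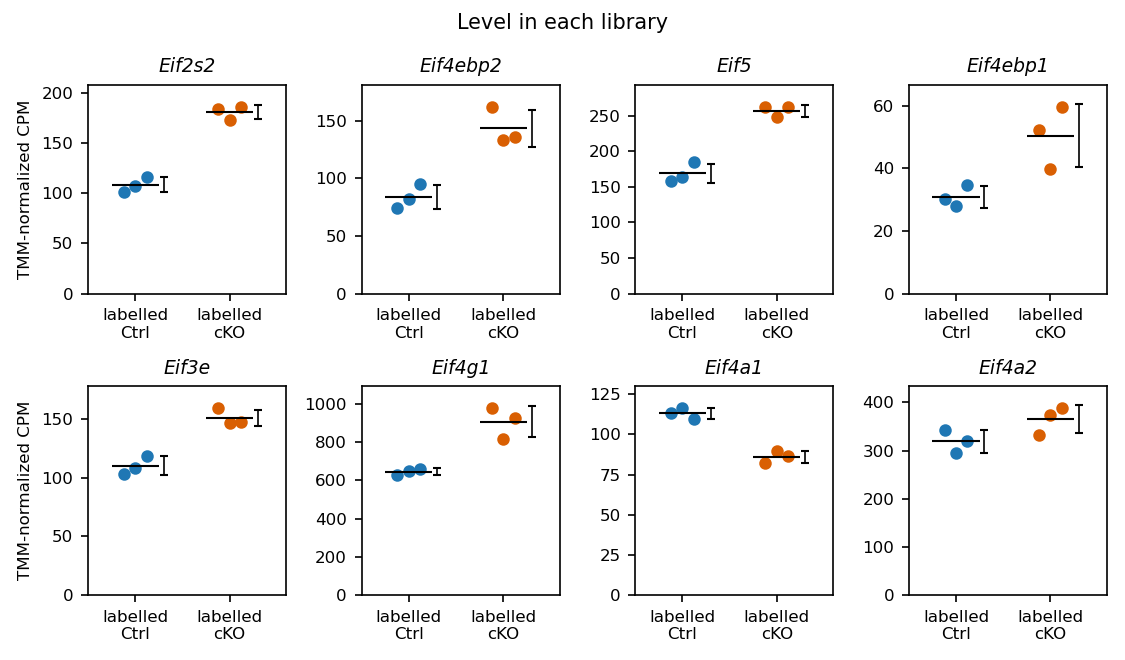
TMM-normalized CPM of 8 members in each library. Points are libraries, horizontal lines are group means and bars are SD (n = 3). In every panel but that of Eif4a2 the groups do not overlap, and Eif4a1 is the only one of them with the lower values in cKO-labelled libraries.

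Levels per kilobase spanned more than the differences between groups. In Ctrl-labelled libraries they ran from 0.377 ± 0.0441 CPM for Eif5a2, a paralog of Eif5a, to 478 CPM for Eif1 among the members tested. Eif5a had 236 ± 5.58 CPM, and Eif4g1 and Eif4g2 at 115 ± 2.93 and 112 ± 4.45 CPM overlapped. The level of Eif4a2 depended on the transcript taken: it was 260 ± 19.1 CPM with the transcript of 1227 bases used here, of which 1224 are coding, 118 ± 8.64 with its longest one of 2708 bases, and 59.8 ± 4.38 over the 5338 bases of its merged exons. Its place in the order is thus uncertain. Genes of one complex also differed in level. Among the 12 eIF3 subunits tested the means ran from 34.0 ± 1.11 CPM for Eif3d to 98.6 ± 4.47 for Eif3h, and among eIF2B subunits from 9.78 ± 0.945 for Eif2b3 to 30.3 ± 2.53 for Eif2b4, although over merged exons Eif2b4 was at 20.6 and Eif2b5 at 26.2 CPM. Replicate error was small for most members, with a median coefficient of variation of 5.15% in Ctrl-labelled libraries and 7.61% in cKO-labelled ones. The most variable were Eif4g3 (17.1%) among Ctrl-labelled libraries and Eif5a2 (22.8%) among cKO-labelled ones.

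**Figure D4:**
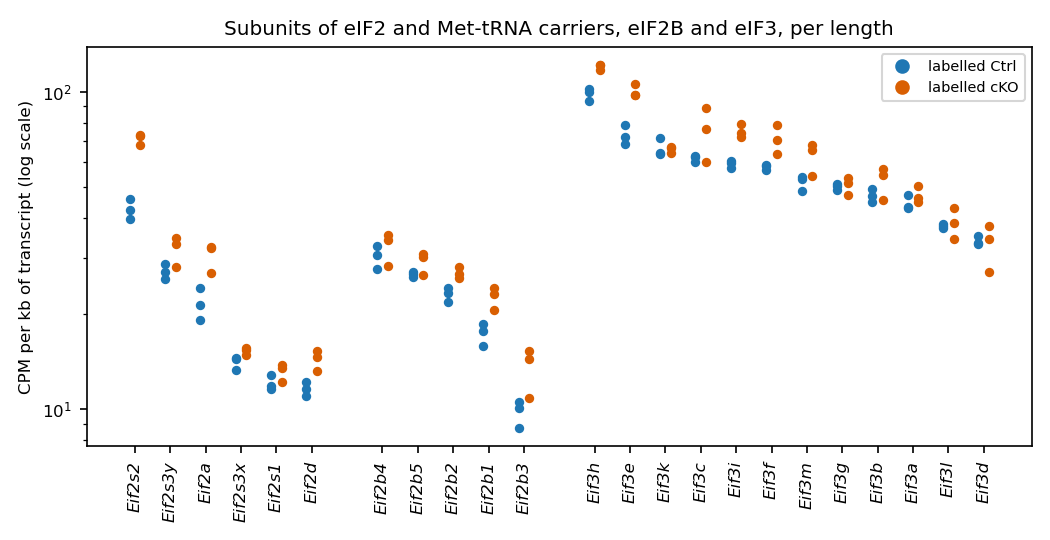
TMM-normalized CPM per kilobase of transcript, on a log axis, of the genes of eIF2 and alternative tRNA carriers (left), eIF2B (middle) and eIF3 (right), ordered by level within each set. Points are libraries, 3 labelled Ctrl and 3 labelled cKO. Eif2s2 has the highest level of its set and the groups lie well apart, whereas Eif2b3 and, among the eIF3 genes with counts, Eif3d have the lowest mean of theirs in Ctrl-labelled libraries.

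A ratio of the counts of paired members within a library does not depend on how libraries are scaled. Of 13 ratios computed, 5 had groups that did not overlap, for which no share over all genes was computed. The exact two-sided permutation test gave p = 0.1 for each, the smallest that 3 against 3 allow, and 0.26 after Benjamini-Hochberg adjustment over the 13, so none could pass. Eif4a1 to Eif4a2 was 0.331, 0.393 and 0.343 in Ctrl-labelled libraries and 0.247, 0.240 and 0.223 in cKO-labelled ones. The groups did not overlap, and the log2 difference was -0.59. Eif1a to Eif1ax, near-identical genes whose reads may be split, was 0.341, 0.301 and 0.360 against 0.190, 0.242 and 0.231, a difference of -0.60. Eif1b to Eif1 was 0.0497, 0.0504 and 0.0488 against 0.0390, 0.0413 and 0.0396. Eif4g1 to Eif4g2 was 0.695, 0.756 and 0.713 against 0.844, 0.801 and 0.837. Eif2ak4 to Eif2ak3 was 1.11, 1.34 and 1.11 against 1.56, 1.42 and 1.64. The ratio of Eif4ebp1 to Eif4e, which sets the inhibitor against its target, was 0.377, 0.317 and 0.423 against 0.439, 0.401 and 0.562, and the groups overlapped (exact permutation p = 0.2). Neither Eif4ebp1 to Eif4ebp2 nor Eif4g3 to Eif4g1 was apart (p = 0.7 and 0.6, exact permutation test).

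**Figure D5:**
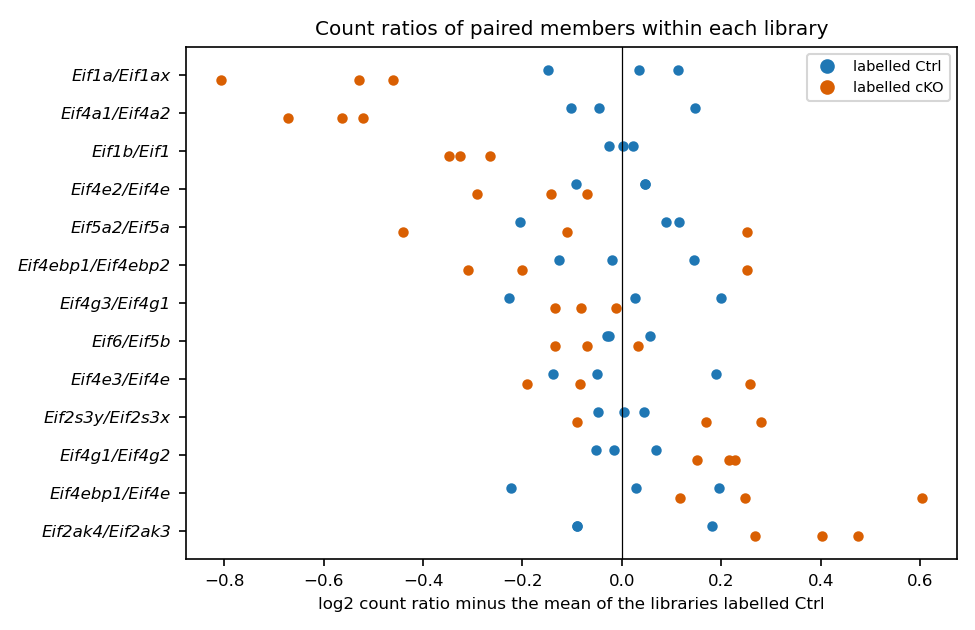
Log2 count ratio of 13 pairs of members in each library, minus the mean of Ctrl-labelled libraries. Points are libraries. Eif1a/Eif1ax, Eif4a1/Eif4a2 and Eif1b/Eif1 lie lower in cKO-labelled libraries, Eif4g1/Eif4g2 and Eif2ak4/Eif2ak3 higher, and the other pairs overlap.

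The makeup of the family could also be read from the share of each member in the counts of all 55. Eif2s2 took 1.61, 1.68 and 1.75% in Ctrl-labelled libraries and 2.22, 2.36 and 2.31% in cKO-labelled ones, Eif4ebp2 1.18, 1.28 and 1.43% against 1.96, 1.81 and 1.68%, and Eif5 2.51, 2.56 and 2.77% against 3.17, 3.37 and 3.26%. All of these shares were apart, as was that of Eif4g1, at 9.97, 10.1 and 9.90% against 11.8, 11.1 and 11.5%. In the other direction, Eif4a1 took 1.80, 1.81 and 1.64% against 0.991, 1.22 and 1.07%, and Eif3g 0.859, 0.865 and 0.844% against 0.711, 0.709 and 0.706%. Each gave an exact permutation p of 0.1, the smallest possible. Over the 52 members tested, the share was higher in cKO-labelled libraries without overlap in 8 and lower in 19, and it overlapped in 25, counts for which no share over all genes was computed. Shares add up to the whole, so that higher shares of some members go with lower shares of others. Among the 19 were Eif1b, Eif3a, Eif3b, Eif3d, Eif3k, Eif3l, Eif4h, Eif5a, Eif5b and Eif6. Shares of Eif1, Eif3h and Eif4g2 overlapped (exact permutation p = 1, 1 and 0.9).

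Beyond the family, a list of 57 partners and regulators of translation was examined in the same fit, and all were tested. With TMM factors 14 were higher in cKO-labelled libraries and 5 in Ctrl-labelled ones, none by over 2-fold, against 12.6% and 11.8% of all genes. Partners at the cap and the poly(A) tail, proteins that unwind, bridge or recycle with eIF4F, had 9 of 18 higher and 0 lower, with a median of 0.34. With total counts 1 of the 18, Ddx3x, was higher and 3, Paip2, Pdcd4 and Mknk2, were lower, and only Ddx3x and Mcts1 of the 9 passed in each fit without Ctrl 1, cKO 1 or cKO 3. The other lists had, with TMM factors, 4 higher and 2 lower of 15 mTORC1 pathway genes, 0 and 1 of 8 genes around eIF2 phosphorylation, 0 and 1 of 4 partners of eIF5A and eIF6, and 1 and 1 of 12 elongation and release factors. These genes, chosen after their values were seen, illustrate both directions. Ddx3x, a helicase that helps eIF4F on structured mRNAs, had 194, 195 and 203 CPM in Ctrl-labelled libraries and 286, 283 and 295 CPM in cKO-labelled ones (log2 0.55, SE 0.07, adjusted p = 0.00426). Mcts1, which works with Denr on ribosomes after termination, had 15.6, 16.7 and 18.2 CPM against 23.2, 23.4 and 24.9 CPM (0.50, SE 0.09, adjusted p = 0.00913). Both were apart between the groups and passed in all 6 fits that left out a library, but with total counts Mcts1 had 0.25 and did not pass (adjusted p = 0.0860), while Ddx3x had 0.29 and did (adjusted p = 0.0303).

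Deptor, an inhibitor within the mTOR complexes, had 72.1, 80.3 and 103 CPM in Ctrl-labelled libraries and 171, 131 and 152 CPM in cKO-labelled ones (log2 0.83, SE 0.15, adjusted p = 0.0112), while Mtor itself had a log2 fold change of -0.002 (adjusted p = 0.989), which with total counts was -0.26 and passed (adjusted p = 0.0300). Rps6kb1, the S6 kinase downstream of mTORC1, had 38.1, 36.5 and 42.0 CPM against 53.0, 52.6 and 53.1 CPM (0.45, SE 0.07, adjusted p = 0.00800). With total counts it had 0.19 and did not pass (adjusted p = 0.12). Rptor, which encodes the mTORC1 subunit Raptor, passed in the other direction, with 81.5, 83.2 and 84.8 CPM against 71.5, 59.8 and 64.6 CPM (-0.35, SE 0.08, adjusted p = 0.0252), a call lost without Ctrl 1, Ctrl 2, Ctrl 3 or cKO 3. The remaining calls of that list were Ddit4l (0.61, adjusted p = 0.0163) and Akt1s1 (0.35, adjusted p = 0.0194), higher, and Sesn1 (-0.70, adjusted p = 0.0355), lower. Of these only Ddit4l passed in all 6 fits that left out a library, and only Sesn1 with total counts. Ddit3, which encodes CHOP, a late target of eIF2 phosphorylation, had 19.2, 18.1 and 15.6 CPM against 11.3, 12.8 and 10.7 CPM (-0.61, SE 0.11, adjusted p = 0.0118), while Atf4, whose mRNA is favored when eIF2 is phosphorylated, did not pass (0.12, adjusted p = 0.355). Eef1a1, the form of elongation factor 1A that adult fibers largely replace with that of Eef1a2, had 711, 680 and 702 CPM against 394, 430 and 409 CPM (-0.76, SE 0.08, adjusted p = 0.0027), in the same direction as the slow-fiber and immune markers, whose part was not tested. Eef2k, in the same list, was higher (0.91, SE 0.20, adjusted p = 0.0178), a call lost without Ctrl 1 or cKO 3. Sbds, which with a GTPase removes eIF6 from the large subunit, had 42.5, 41.0 and 40.0 CPM against 23.5, 28.1 and 24.4 CPM (-0.70, SE 0.09, adjusted p = 0.0036). The number of partners higher in cKO-labelled libraries was 5 without Ctrl 1, 8 without Ctrl 2, 6 without cKO 1 and 5 without cKO 3, fits in which 5.33 to 6.2% of all genes were higher, and with total counts the split was 3 and 18 of 57, against 4.75% and 28.7% of all genes.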

How the data were processed

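Bulk RNA-Seq libraries of GP muscle from 3 mice labelled Ctrl and 3 labelled cKO were analysed, grouped by their sample labels. The authors trimmed reads with Trimmomatic (version 0.39), aligned them to mm10 with HISAT2 (version 2.1.0) and counted them per gene with featureCounts (version 1.6.2). They deposited these raw counts without normalization, as whole numbers per gene. The annotation and the strand setting are not given in the sources used here. Counts were tested in R (version 4.3.3) with edgeR (version 4.0.16): TMM factors, filterByExpr, glmQLFit and glmQLFTest on the group, with Benjamini-Hochberg adjustment over all 14180 genes tested. Passing means an adjusted p under 0.05. DESeq2 (version 1.42.0) was an alternative. Standard errors come from the F statistic. Exact two-sided permutation tests were used for ratios and shares. The p-values set the groups against the spread between single mice, which edgeR estimates for each gene with information shared over all genes tested.

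The members and gene lists were chosen with earlier results of these data known. Named are the members that passed, the member with the highest CPM and that with the largest log2 fold change in each role, members not tested, and members of the pairs. Other members and partners named in the text were chosen after their values were seen. Gene positions and transcript lengths (transcript with the longest coding sequence) come from GENCODE M21 (GRCm38), matched by symbol for all 55 members. Libraries held 33860001 counts or more. The coefficient of variation was above the Poisson counting error of the mean count for 44 of 52 members in Ctrl-labelled libraries and for 50 in cKO-labelled ones, and over all genes the chi-square of replicate counts was 29.5 to 101 times its degrees of freedom. Deviations of libraries with the same mouse number had correlations of -0.215 to 0.084, within the -0.217 to 0.194 of libraries with different numbers. Pairing was thus not shown, but so few libraries cannot exclude it. On simulated data with 200 genes changed by a log2 of 1, edgeR recovered 137 with 9 others called (14019 genes), and DESeq2 157 with 30 others (14180 genes). Other scalings, filters, the mouse number as a block and leaving out each library were tried. Shares of the members' summed counts and other gene lengths were added after seeing the data. Single-nucleus data were not used here.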

Additional observations from a re-analysis of the deposited data

How the results depend on the processing

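Scaled by total counts, members higher in cKO-labelled libraries numbered 4 and those higher in Ctrl-labelled libraries 9 (15 and 1 with TMM), partners 3 and 18 (14 and 5), against 4.75% and 28.7% of all genes, and the members' median was -0.0455. The sign then changed from positive to negative for 22 members, among them Eif2b5 (-0.12), Eif3a (-0.17) and Eif5a (-0.12), and for 25.2% of all genes, a difference that the scaling itself makes. DESeq2's Wald test called 21 members and 16 partners higher in cKO-labelled libraries (12% of all genes), and 8 partners in Ctrl-labelled ones (10.6%). With the mouse number as a replicate block, a pairing neither shown nor excluded, 6 members and 7 partners were higher in cKO-labelled libraries. The share of all genes was then 6.54% rather than 12.6%. Leaving out 1 library gave 4 to 21 members higher in cKO-labelled libraries and 1 to 2 in Ctrl-labelled ones, and 5 to 15 and 3 to 6 partners. All 16 members that passed kept their direction in the 12 alternatives fitted, and Eif2s2, Eif4ebp2, Eif5 and Eif4a1 passed in all 12. As a share of the members' summed counts, an alternative added after seeing the data, Eif3h was at -0.00438 and Eif2s2 at 0.45. DESeq2's size factors, no filter and at least 10 counts in every library left 15 and 1 members. When 1 library was left out, 4 of the 13 log2 ratios within libraries changed sign (Eif4e3/Eif4e, Eif4ebp1/Eif4ebp2, Eif4g3/Eif4g1 and Eif5a2/Eif5a), all of them with groups that overlapped, and 3 moved by more than the smaller SD of the groups (Eif2s3y/Eif2s3x, Eif4ebp1/Eif4ebp2 and Eif4g3/Eif4g1) but 0 by more than the larger. With 3 mice a group, exact tests of single values cannot go below p = 0.1, and members with at most 15 counts in each library were not tested.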
